A study of Mus musculus with 4 samples.

Results

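Medium spiny neurons were sought among single nuclei of mouse hippocampus by their transcripts. A nucleus was taken as a medium spiny nucleus when it held at least 1 unique molecular identifier (UMI, 1 counted transcript molecule) of Gad1 or Gad2, at least 4 summed UMIs of Rgs9, Drd1, Drd2, Adora2a and Ppp1r1b, at least 8 UMIs of these 5 genes per 10,000 UMIs of the nucleus, and at least 2 of the 5 genes. The members were thus selected on measured values of these genes. Of 56834 nuclei with at most 20% mitochondrial UMIs, 98 met the rule, and 91 of them came from a single pool of mice.

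The study asked how repeated social defeat (RSD) alters hippocampal cells, and whether microglia or the neuronal interleukin-1 receptor are involved. In RSD an aggressive CD-1 male was placed in the home cage for 2 h on each of 6 nights. Controls were left undisturbed, and hippocampi were taken 14 h after RSD ended. There were 8 pools of 3 mice each, and the 4 sublibraries analysed here each held nuclei of all 8 pools, so a sublibrary is a technical and not an animal replicate.

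Control-Vehicle and Stress-Vehicle were male C57BL/6 mice purchased at 5 to 7 weeks of age and fed vehicle chow, and Control-PLX5622 and Stress-PLX5622 were fed chow with PLX5622, a CSF1R antagonist that depletes microglia, from 7 days before RSD. Con-IL-1R1+/+ and Stress-IL-1R1+/+ were Cre-negative mice bred in-house without diet treatment. Con-nIL-1R1-/- and Stress-nIL-1R1-/- lacked Il1r1 in cells with Vglut2-Cre, a driver of glutamatergic neurons and not of GABAergic medium spiny neurons. The experimental mice of all pools were male. All nuclei were labelled hippocampus, and the mice of a pool were mixed before barcoding, so nuclei of the 3 mice cannot be told apart.

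Medium spiny neurons are the GABAergic projection neurons of the striatum. Their dopamine receptors act through a cyclic AMP cascade built on the G protein subunit Gαolf, adenylyl cyclase 5 and the phosphodiesterase PDE10A, which converges on the phosphatase inhibitor DARPP-32 (Ppp1r1b). Neurons of the direct pathway carry the D1 receptor (Drd1) with substance P and dynorphin. Neurons of the indirect pathway carry the D2 receptor (Drd2) and an adenosine receptor (Adora2a) with enkephalin.

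The Stress-IL-1R1+/+ pool held 91 medium spiny nuclei among 5858, or 1.55% (exact 95% binomial interval 1.25 to 1.90). The other pools held 1 of 8474 nuclei in Control-Vehicle (0.0118%), 1 of 7554 in Con-IL-1R1+/+ (0.0132%), 4 of 6511 in Con-nIL-1R1-/- (0.0614%, 0.0167 to 0.157) and 1 of 6045 in Stress-nIL-1R1-/- (0.0165%). No nucleus met the rule among 7382 in Control-PLX5622, 7332 in Stress-Vehicle and 7678 in Stress-PLX5622, where a count of 0 allows shares of up to 0.0406, 0.0409 and 0.0391% (3 counts of the total), and the exact intervals reach 0.0500, 0.0503 and 0.0480%. All intervals and limits here cover counting error only. With 1 pool per group there was no test of stress or genotype on this share, and pool, stress and genotype cannot be told apart in it.

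The pools differed in depth, and the part of depth in these shares was not tested. The median UMI count per nucleus was 3218.5 in Stress-IL-1R1+/+, 5012 in Con-nIL-1R1-/-, 3098.5 in Con-IL-1R1+/+, 2580 in Stress-nIL-1R1-/- and 2563 in Control-Vehicle. It was 1325.5 in Stress-Vehicle, 598 in Control-PLX5622 and 628 in Stress-PLX5622, the 3 pools without a member. Summed over kept nuclei, the pools held between 7534594 UMIs (Stress-PLX5622) and 58081835 UMIs (Con-nIL-1R1-/-), with 28126629 in Stress-IL-1R1+/+.

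Within Stress-IL-1R1+/+ the share moved with the depth of the sublibrary. Sublibraries 1 to 4 held 26, 13, 7 and 45 members, or 1.81, 0.877, 0.465 and 3.13% of their nuclei. Their median UMI counts per nucleus were 4837, 2246.5, 1763 and 5560. When every nucleus was thinned to 1000 UMIs, 2, 2, 4 and 3 nuclei still met the rule, or 0.139, 0.159, 0.365 and 0.209%, with intervals that overlapped. The members held a median of 25.3 UMIs of the rule's genes per 10,000, too few to leave the required 4 in 1000 on average. The thinned counts were thus low by design and cannot show whether depth made the sublibraries differ. The 6 first-round barcode wells of the pool all held members, between 7 and 28 each. No full barcode occurred more than once in all pools, and 2 members of different sublibraries shared 1 barcode triple with each other.

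**Figure D1:**
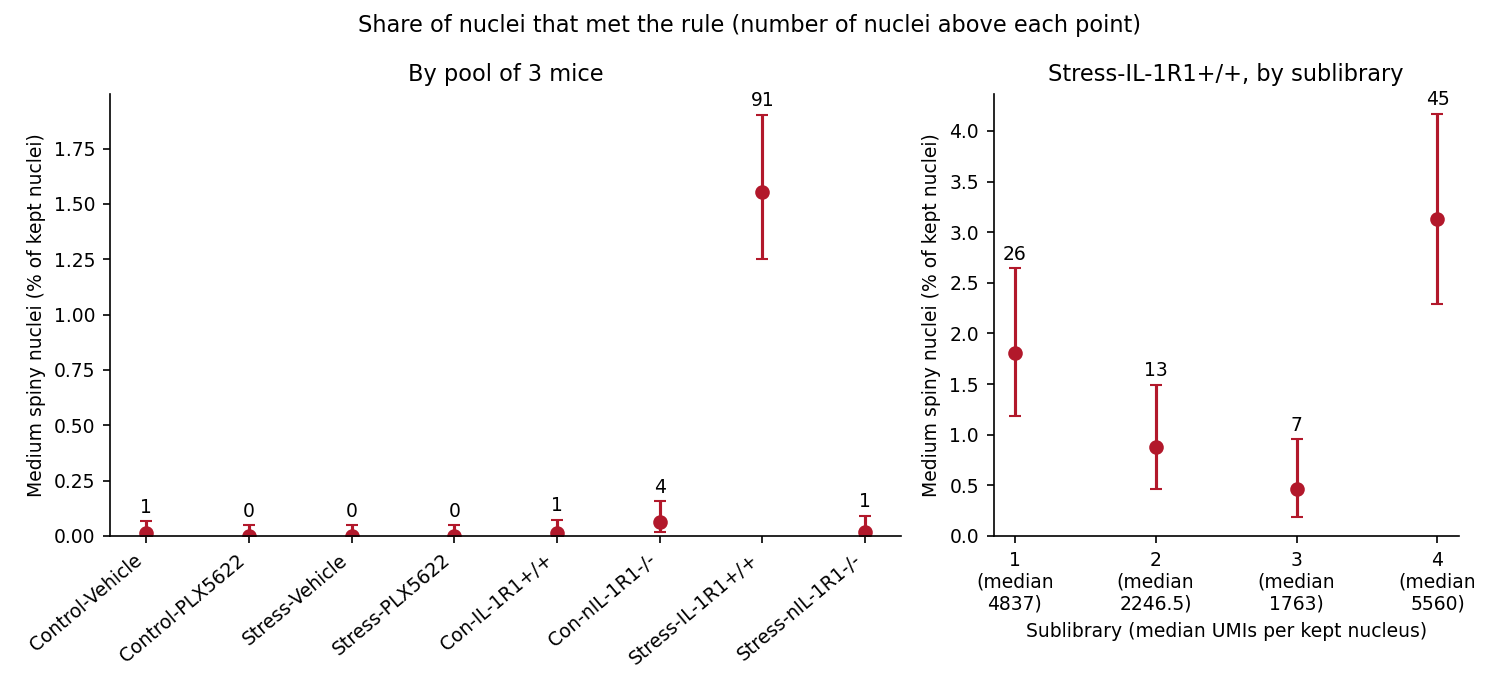
Medium spiny nuclei as a percentage of kept nuclei in each of the 8 pools (left) and in each sublibrary of Stress-IL-1R1+/+ (right, with the median UMIs per kept nucleus under the axis). Points are shares, bars are exact 95% binomial intervals for counting error, and the number above each point is the count of members; Stress-IL-1R1+/+ stands at 1.55% and the other 7 pools at 0.0614% or below.

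Some members lay close to the thresholds. Of the 98 members 9 had exactly 4 UMIs of the 5 genes, and 10 further nuclei had 3 UMIs and met the other conditions. Another 3 members lay between 8 and 9 UMIs per 10,000, with 3 nuclei just outside between 7 and 8. The condition on Gad1 and Gad2 left out more: 53 nuclei of Stress-IL-1R1+/+ met all else, at a median of 2348 UMIs, against 4216 in the members. These 53 nuclei held Rarb at 2305 CPM (UMIs of the gene per 1000000 UMIs), Foxp1 at 2930 and Pde10a at 7266, against 1951, 2729 and 6365 CPM in the members.

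The genes that chose the members are given as a description. Rgs9, a GTPase accelerator for striatal G proteins (mm39, chr11:109116158-109189025, minus strand), was found in all 91 members of Stress-IL-1R1+/+ with 692 UMIs, a median of 6 and a maximum of 29 per nucleus. Drd2 (chr9:49251654-49319477, plus strand) had 291 UMIs in 60 nuclei. Ppp1r1b (chr11:98239169-98248624, plus strand) had 94 UMIs in 56 nuclei, and Adora2a (chr10:75152560-75170628, plus strand) had 25 in 19. Drd1 (chr13:54204872-54209760, minus strand) had 5 UMIs, each in a different nucleus. Per kilobase of gene span, a rough scale for setting genes of different length side by side, Ppp1r1b stood at 9.94 UMIs, Rgs9 at 9.50, Drd2 at 4.29, Adora2a at 1.38 and Drd1 at 1.02. The members, 91 of 5858 nuclei, held 52.3% of the pool's Drd2 UMIs, 43.9% of Adora2a, 41.0% of Ppp1r1b, 31.9% of Rgs9 and 17.9% of Drd1.

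The members were next compared with 132 other inhibitory nuclei of the same pool, which had at least 4 UMIs and 8 per 10,000 UMIs of Gad1 and Gad2, at most 1 UMI of Slc17a7 and Slc17a6, and did not meet the rule. Since Stress-IL-1R1+/+ was the only pool with 5 or more members, values carry exact 95% intervals for counting error and no p-value. Median depth was 4216 UMIs in the members and 4816 in the other inhibitory nuclei. Among 3812 genes with at least 50 UMIs over both classes, 394 were at least 2-fold higher in the members (10.3%) and 495 at least 2-fold lower (13%), with a median log2 ratio of -0.08.

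Transcription factors of striatal projection neurons, none of them used by the rule, were higher in the members. All 6 of the 9 listed factors that reached 50 UMIs were at least 2-fold higher, with a median log2 ratio of 4.16. Under 50 UMIs, Six3 had 9 against 1 UMIs, Zfp503 2 against 0 and Ikzf2 12 against 29 (log2 ratio -0.50, -1.60 to 0.52). Rarb, a retinoic acid receptor, stood at 1839, 1291, 1035 and 2207 CPM in sublibraries 1 to 4 of the members, and at 56.7, 113, 24.9 and 33.1 CPM in the other inhibitory nuclei. The ranges were far apart, with a pooled log2 ratio of 5.04 (4.62 to 5.49). Meis2, a homeodomain factor, stood at 976, 1044, 995 and 1362 CPM against 151, 18.8, 24.9 and 88.2 CPM, a log2 ratio of 3.61 (3.27 to 3.98), again with no overlap. Foxp1, a forkhead factor, had between 2587 and 2883 CPM in the members and between 238 and 461 CPM in the other inhibitory nuclei. Foxp2 (log2 ratio 4.71) and Rxrg, a retinoid X receptor with 54 UMIs against 1 (6.53, 3.99 to 11.9), were also higher. Rxrg stood at 0 CPM in sublibrary 3 of both classes, so its sublibraries overlapped. Bcl11b, known as Ctip2, had the smallest ratio of the 6, 1.64 (1.38 to 1.91), and its sublibraries overlapped, with 358 CPM in sublibrary 3 of the members and 387 CPM in sublibrary 3 of the other inhibitory nuclei. Without sublibrary 1 the ratios were 4.70 for Meis2, 6.09 for Foxp2, and Rxrg, with 0 UMIs left in the other inhibitory nuclei, had a lower bound of 4.17 against the floor of 3 UMIs. Without sublibrary 4 the ratios of Foxp2 and Rxrg were 3.97 and 5.69.

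Rarb was found in 89 of the 91 members at a median of 19.4 UMIs per 10,000, and in 28 of the 132 other inhibitory nuclei at a median of 0. After thinning to 1000 UMIs, 86.8% of members and 3.03% of other inhibitory nuclei held a Rarb UMI. The share was 1.26% in oligodendrocytes, which should lack the gene. The median member held 16 of the 24 listed identity genes (range 9 to 20), the median other inhibitory nucleus 7 (1 to 18). The thinned medians were 10 and 3.

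Signalling genes typical of medium spiny neurons followed the same pattern. All 12 of 15 that reached 50 UMIs were at least 2-fold higher in the members, with a median log2 ratio of 2.81. Adcy5, adenylyl cyclase 5, stood at 1714, 1867, 915 and 1999 CPM in the members by sublibrary and at 116, 119, 175 and 93.7 CPM in the other inhibitory nuclei, a log2 ratio of 3.97. Pde10a stood at 5741, 6481, 4617 and 6903 against 2024, 1457, 1633 and 1919 CPM, a log2 ratio of 1.79. Neither gene overlapped between the classes. Phactr1, a regulator of protein phosphatase 1 and actin, had the highest CPM of the list, 14105 against 1716 (log2 ratio 3.04, 2.95 to 3.12). Gnal, which encodes Gαolf, and Gng7, the gamma subunit paired with it, had log2 ratios of 2.26 and 3.43. The phosphodiesterases Pde7b and Pde1b reached 4.19 and 3.73, and Actn2, a cytoskeletal actinin, 3.92. Arpp21, a cAMP-regulated phosphoprotein (2.01), Rasgrp2, an exchange factor for Rap (2.58), Ano3 (1.76) and Ptpn5, the striatum-enriched phosphatase STEP (1.60), completed the 12. The ratio of Ano3 was 2.39 without sublibrary 1, and without sublibrary 4 those of Ano3 and Gnal were 1.11 and 1.67. Scn4b and Syndig1l stayed under 50 UMIs, with 39 against 4 and 40 against 3 UMIs.

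Excitatory neurons of the pool express part of these lists. Against 1870 excitatory nuclei, all 6 transcription factors and 10 of the 12 signalling genes were at least 2-fold higher in the members. Arpp21 stood at 1415 CPM in the excitatory nuclei and 1076 CPM in the members, and Ano3 at 335 and 363 CPM.

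**Figure D2:**
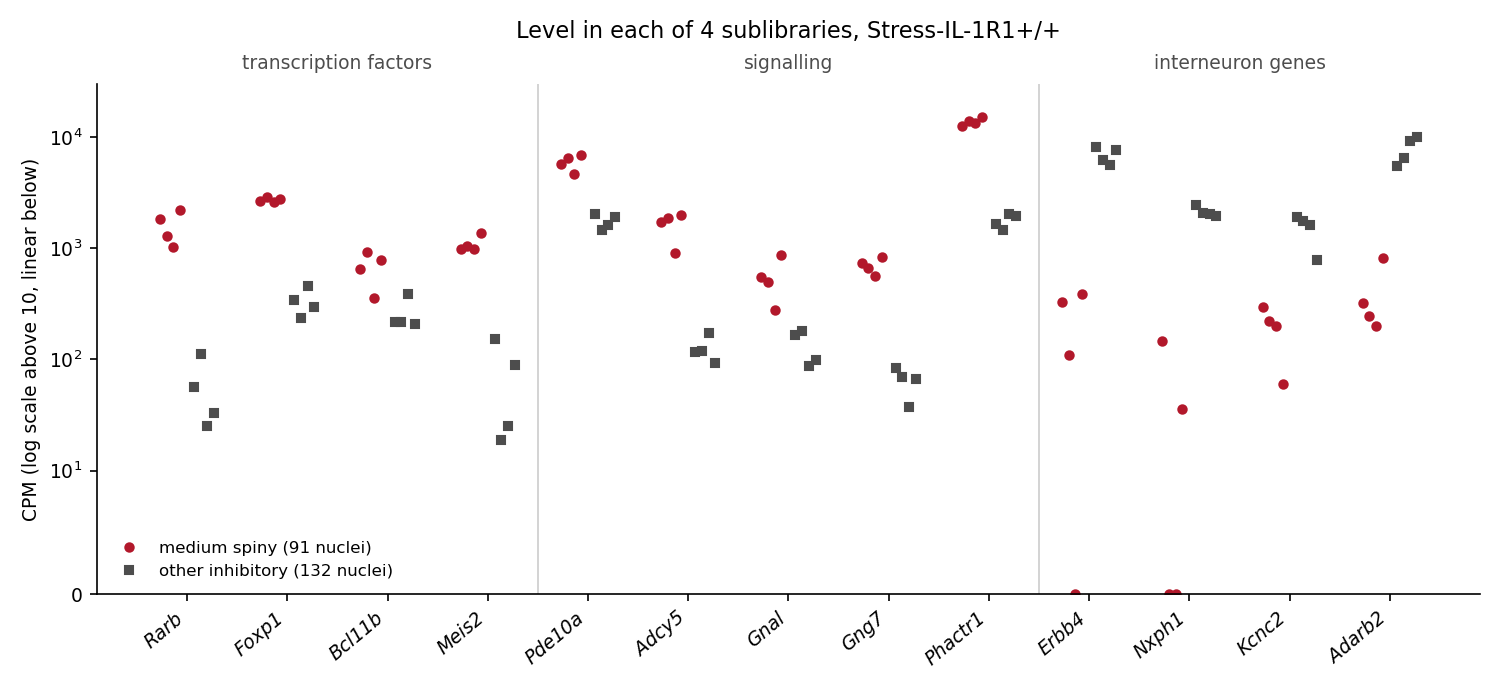
Level of 13 listed genes in each of the 4 sublibraries of Stress-IL-1R1+/+, in CPM (log scale above 10 and linear below), in the 91 medium spiny nuclei (red circles) and the 132 other inhibitory nuclei (grey squares). The sublibraries of the 2 classes do not overlap for 12 of the 13 genes; the exception is Bcl11b, at 358 and 387 CPM in sublibrary 3.

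Of the wider dopamine and cyclic AMP cascade, 19 of 29 genes reached 50 UMIs, of which 12 were higher, 1 lower and 6 within 2-fold (median log2 ratio 1.60). The 12 include 8 genes already given with the signalling list. The other 4 were Akap5, an anchor of protein kinase A (2.63), Ppp3ca, the catalytic subunit of calcineurin (1.73), the phosphodiesterase Pde4b (1.37) and the G protein subunit Gnb5 (1.22). Oligodendrocytes of the pool held Pde4b at 11575 CPM, above the 1240 CPM of the members. Prkar1b, a regulatory subunit of protein kinase A, was lower, with a log2 ratio of -1.34 (-1.81 to -0.90). Within 2-fold lay Prkar2b (0.77), Prkacb (0.32), Rgs7bp, the membrane anchor of RGS9 (0.06), and the receptors Grm5 (0.81), Chrm1 (0.93) and Cnr1 (-0.30). The dopamine receptor genes Drd3 and Drd5 had 3 and 0 UMIs.

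The channel and receptor genes split in both directions, and their counts stand beside 10.3% higher and 13% lower over all genes. The higher counts of the GABA-A and glutamate receptor lists were near that background. Of 9 potassium channel genes that reached 50 UMIs, 5 were higher and 2 lower (median log2 ratio 1.19). Kcnd2, the A-type channel Kv4.2, stood at 3809 against 1184 CPM, and its partner Kcnip2 at 246 against 32.8 CPM. Kcnk2, a leak channel, had a log2 ratio of 3.17. The fast Kv3 channels were lower, Kcnc1 by a log2 ratio of -2.10 and Kcnc2 of -3.33. Among 10 GABA-A receptor subunits, 1 was higher and 4 lower, with a median of -0.22. Gabra4 was higher (1.60), and the lower subunits included Gabra3 (-1.84), Gabra5 (-1.36) and Gabrb2 (-1.34). Among 19 glutamate receptor genes, 3 were higher and 5 lower, with a median of 0.18. The higher genes included the metabotropic receptors Grm3 (2.37) and Grm7 (1.47), and the 5 lower genes were the AMPA subunits Gria1 (-1.02) and Gria4 (-1.58), the NMDA subunits Grin3a (-3.03) and Grin2d (-5.23), and the kainate subunit Grik1 (-5.47).

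**Figure D3:**
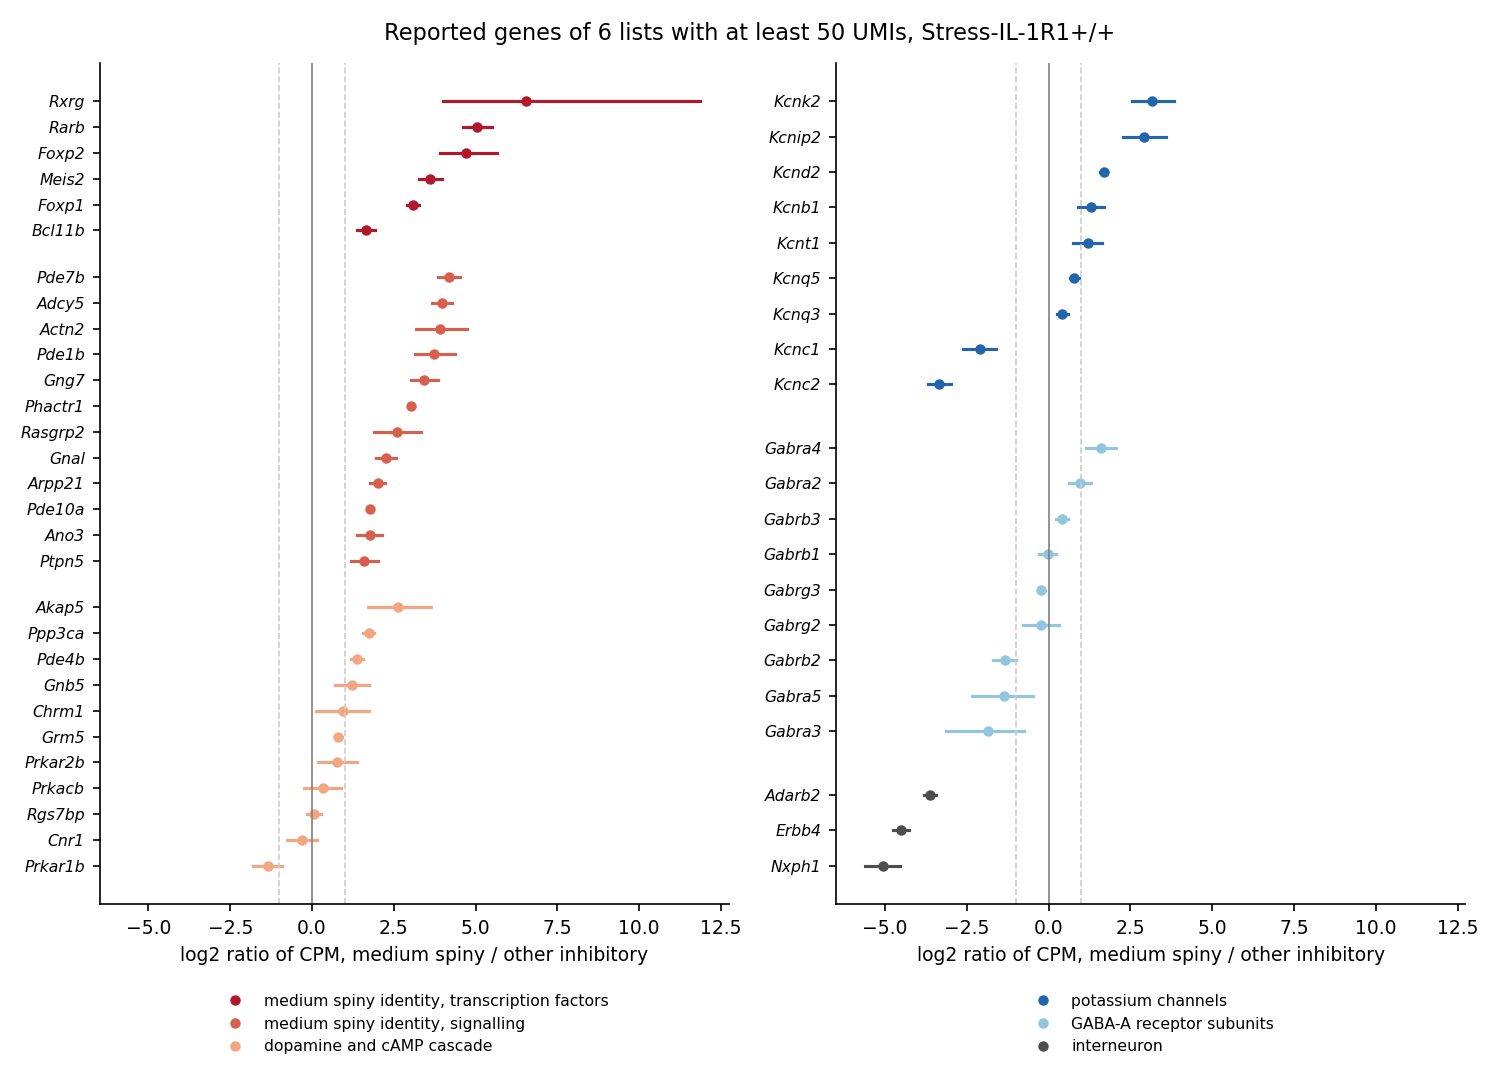
Log2 ratio of CPM in medium spiny over other inhibitory nuclei of Stress-IL-1R1+/+ for the reported genes of 6 lists with at least 50 UMIs, grouped by list in colour, with a gene of 2 lists drawn once. Points are ratios, bars are exact 95% intervals for counting error and dashed lines mark 2-fold; the identity factors and signalling genes all lie right of 2-fold, from 1.60 to 6.53, and Adarb2, Erbb4 and Nxph1 lie left of it.

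Interneuron genes were low in the members. All 4 of the 11 that reached 50 UMIs were at least 2-fold lower, with a median log2 ratio of -4.07, and the summed list stood at 1145 against 18483 CPM. Erbb4, the neuregulin receptor, stood at 330, 110, 0 and 389 CPM in the members by sublibrary and at 8204, 6199, 5611 and 7731 CPM in the other inhibitory nuclei. Under 50 UMIs, Lhx6 had 1 against 32 UMIs, Vip 0 against 30, Npy 0 against 15, Pvalb 1 against 7 and Lamp5 6 against 15. Sst, with 0 against 3, and Sncg, with none in either class, allow no comparison. Adarb2 was the most abundant interneuron gene in the members, at 577 CPM, with a log2 ratio of -3.62 that was -4.40 without sublibrary 4. The comparison nuclei were chosen for high Gad1 and Gad2, so the lower level of these genes in the members (214 against 721 and 266 against 679 CPM) is set by that choice. Of the GABAergic genes not used, Dlx6os1 was lower (-3.05), and the vesicular transporter Slc32a1 had 3 against 7 UMIs.

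Marker lists of other cell types were also summed. The excitatory list summed to 832 CPM in the members and 472 CPM in the other inhibitory nuclei, against 1759 CPM in excitatory nuclei. Camk2a led it at 683 CPM, Nrgn, a calmodulin-binding protein, was higher in the members with 48 against 5 UMIs, Slc17a7 stood at 15.1 CPM, and Slc17a6 and Neurod6 were at 0. The oligodendrocyte list, with all 6 genes found, summed to 464 against 258 CPM, where oligodendrocytes had 19901. Mbp led it at 205 CPM and was past 2-fold (log2 ratio 1.12). Microglial genes (all 5 found, Inpp5d most abundant) summed to 64.8 against 69.4 CPM and endothelial genes (1 of 3, Flt1) to 13.0 against 10.1 CPM. Of 4 astrocyte genes 2 were found, led by Slc1a2, with 88.6 against 143 CPM in sum and none of Aqp4 or Gja1. Of the oligodendrocyte precursor genes only Vcan was found (49.7 CPM, log2 ratio -1.58), with none of Pdgfra or Cspg4. The part of these transcripts in the results was not tested. A single member had 2 or more UMIs of Slc17a7 and Slc17a6, and 8 members exceeded 3 times the pool's median UMI count.

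In 1 member the genes went against the label. It was the only member with UMIs of Chat, the enzyme that makes acetylcholine (6 UMIs), of Slc5a7, the choline transporter (1), and of the transcription factor Lhx8 (2). It had 14351 UMIs, or 3.10% of all UMIs of the members, and the highest Drd2 count, 25 UMIs. Its Rarb, Meis2, Ppp1r1b and Penk counts were 0, and it had 1 Rgs9 and 1 Adora2a UMI. It held 84.8% of the members' UMIs of the substance P receptor Tacr1 and 78.3% of the muscarinic receptor Chrm2. Without it, 391 genes were higher and 536 lower in the comparison with other inhibitory nuclei.

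Apart from the rule genes and Gad1, Gad2, Slc17a7 and Slc17a6, which chose the classes, the 8 genes whose intervals lay farthest above 0 in that comparison were Rarb, Otof, Inf2, Sh3rf2, Rxrg, Pcp4, Foxp2 and Pde7b. Inf2, a formin that shapes actin, had 137 against 5 UMIs (log2 ratio 5.55) and was found in 61 members. Pcp4, a calmodulin-binding protein, had 98 against 4 UMIs (5.39), and Sh3rf2, an SH3 and RING domain protein, 99 against 3 (5.82). Otof, the calcium sensor otoferlin, had 53 against 0 UMIs and was at least 30.2-fold higher against a floor of 3 UMIs for the class. It was found in 12 members, and 1 nucleus held 26.4% of its UMIs. By sublibrary it stood at 59.3, 0, 0 and 176 CPM, and its log2 bound of 4.92 became 4.31 without sublibrary 1 and 3.10 without sublibrary 4. The 8 farthest below 0 were Grik1, Nxph1, Kcnmb2, Zfp804b, Erbb4, Igf1, Fgf13 and Adra1a. Igf1, a growth factor, had 0 against 104 UMIs and was at least 20.3-fold lower, and Kcnmb2, a subunit of the BK channel, had 15 against 868 (-5.08). Without sublibrary 4 the log2 bound of Igf1 was -3.05, from -4.34, and the ratio of Zfp804b was -5.81, from -5.15. Without sublibrary 1 the ratios of Pcp4, Sh3rf2 and Nxph1 were 6.34, 6.48 and -6.13.

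Some identity genes were also higher in the pool outside the members. Over all nuclei of Stress-IL-1R1+/+ Rarb stood at 130 CPM, and at 99.0 CPM without the members, against 34.0 to 55.1 CPM in the other 7 pools. Adcy5 stood at 160 and 131 CPM against 80.7 to 97.6, and Penk, which encodes enkephalin, at 3.52 and 2.39 CPM against 0.392 to 1.47. Pde10a, at 1504 CPM, lay within the range of the other pools, 1086 to 1634 CPM. The 7 members of other pools held Rarb at 1152 CPM and Foxp1 at 1952 CPM, with a median of 12 identity genes per nucleus. Against the other inhibitory nuclei of the same 7 pools together, their log2 ratio was 4.76 for Rarb, 4.34 for Meis2 and 2.84 for Adcy5, and 0.56 for Pde10a and 0.01 for Bcl11b, both within 2-fold.

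Members were then typed by their receptors. A nucleus with at least 2 UMIs of Drd1, Drd2 and Adora2a was called Drd2 type when at least 80% of them were Drd2 or Adora2a, Drd1 type when at least 80% were Drd1, and mixed otherwise. Stress-IL-1R1+/+ had 52 Drd2-type nuclei, 1 mixed nucleus, 38 nuclei with fewer than 2 receptor UMIs (low receptor) and no Drd1-type nucleus. The absence of a Drd1 type among 52 typed nuclei gives a counting limit of 5.77%, and the exact interval reaches 6.85%. No member held more than 1 Drd1 UMI, so none could reach the Drd1 type, which needed at least 2 receptor UMIs with 80% Drd1. The 4 members with Drd1 as their only receptor gene fell among the low receptor nuclei, outside the 52. The limit therefore does not bound the share of direct pathway neurons among the members. That limit concerns nuclei with enough receptor UMIs to be typed: the span of Drd1 is the shortest of the 5 genes, 4.889 kb against 67.824 kb for Drd2, and how far this lowers its count in nuclei was not tested. By any receptor UMI, 60 members had Drd2 or Adora2a only, 4 had Drd1 only, 1 had both and 26 had none. Drd1, Drd2 and Adora2a are also genes of the rule, so both splits are shaped by how the members were chosen. Ppp1r1b, another rule gene, was found in 22 of 52 Drd2-type and 33 of 38 low receptor nuclei. The splits are thus a description of the members and do not give the share of either pathway. Among the 7 members of other pools 2 were Drd2 type and 5 low receptor.

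**Figure D4:**
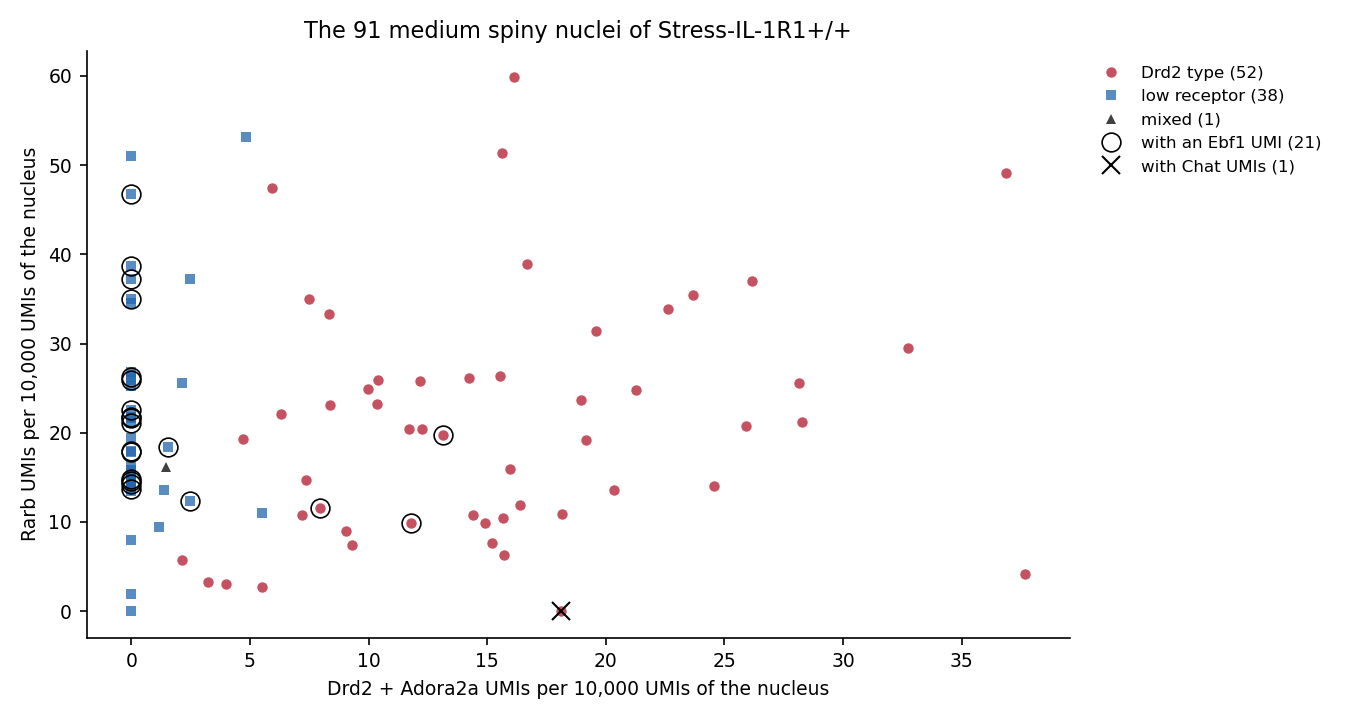
The 91 medium spiny nuclei of Stress-IL-1R1+/+, each drawn by its summed Drd2 and Adora2a UMIs (x axis) and its Rarb UMIs (y axis) per 10,000 UMIs. Colour and shape give the type by receptor UMIs, a ring marks the 21 nuclei with an Ebf1 UMI and the cross marks the nucleus with Chat UMIs; rings fall on 18 low receptor and 3 Drd2-type nuclei.

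With no Drd1-type nucleus, the 52 Drd2-type nuclei were set beside the 38 low receptor nuclei, a comparison chosen after these values were seen. The low receptor nuclei had to reach 4 UMIs almost wholly from Rgs9 and Ppp1r1b, so differences in the 5 rule genes are set by the rule. Median depth was 3730.5 UMIs in the Drd2 type and 4910 in the low receptor nuclei, and the sublibraries held 14, 9, 7 and 22 of the former and 12, 4, 0 and 22 of the latter. Among 1569 genes with at least 50 UMIs over both, 33 were at least 2-fold higher in the Drd2 type (2.1%) and 25 at least 2-fold lower (1.59%), with a median log2 ratio near 0. When every nucleus was given equal weight, the split was 24 higher and 35 lower. The number of higher genes was 14 without sublibrary 1, which holds the member with Chat UMIs, and 53 without sublibrary 4.

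Most genes lay within 2-fold between the classes, 96.3% of all 1569, and the identity lists stood near that share. All 12 signalling genes and all 16 cascade genes that reached 50 UMIs lay within 2-fold, as did 4 of 5 transcription factors. Rarb stood at 1817 CPM in the Drd2 type and 2121 CPM in the low receptor nuclei, Foxp1 at 2899 and 2587, Adcy5 at 1837 and 1852, and Pde10a at 6307 and 6464. Every GABA-A receptor subunit that reached 50 UMIs (6 genes) also lay within 2-fold.

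Of the pathway lists, 1 of 8 direct and 1 of 7 indirect genes reached 50 UMIs, Ebf1 and Grik3, and both were past 2-fold. Ebf1, a transcription factor of direct pathway neurons, had 4 UMIs in the Drd2 type and 47 in the low receptor nuclei, or 16.2 against 226 CPM, a log2 ratio of -3.80 (-5.74 to -2.35). It was found in 3 of 52 and 18 of 38 nuclei, and the ratio was -2.58 without sublibrary 1 and -5.61 without sublibrary 4. By sublibrary it stood at 0, 0, 39.8 and 27.6 CPM in the Drd2 type, and at 393, 0 and 156 CPM in sublibraries 1, 2 and 4 of the low receptor nuclei. The classes thus overlapped in sublibrary 2, where neither held an Ebf1 UMI. Penk stayed under 50 UMIs, with 32 UMIs in 19 of 52 Drd2-type nuclei and 1 UMI in 38 low receptor nuclei. Oprd1, the delta opioid receptor, had 38 against 1 UMIs. Tac1, which encodes substance P, had 1 against 7, Pdyn, which encodes dynorphin, 0 against 4, and Isl1, a direct pathway transcription factor, 0 against 3. Summed over the lists, direct pathway genes stood at 56.5 CPM in the Drd2 type and 360 CPM in the low receptor nuclei, and indirect pathway genes at 985 and 139 CPM. Single genes carried most of the larger sums, with 226 CPM of Ebf1 in the low receptor nuclei and 678 CPM of Grik3 in the Drd2 type. In the other inhibitory nuclei the direct list summed to 89.6 CPM and the indirect list to 325 CPM, with Grik3 at 259 and Oprd1 at 53.0 CPM. At least 1 of the 8 direct pathway genes was found in 8 of 52 and 22 of 38 nuclei, against 45 of 132 other inhibitory nuclei, and 2 members held both Penk and Ebf1.

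Grik3, a kainate receptor subunit on the indirect pathway list, was higher in the Drd2 type at 678 against 125 CPM, a log2 ratio of 2.44 (1.84 to 3.10), and was found in 48 of 52 and 11 of 38 nuclei. By sublibrary it stood at 643, 809, 677 and 673 CPM in the Drd2 type and at 15.1, 500 and 156 CPM in sublibraries 1, 2 and 4 of the low receptor nuclei, with no overlap. The muscarinic receptor Chrm3 (2.19), the secreted protein Nell1 (2.14) and the netrin receptors Unc5d (1.86) and Unc5c (1.51) were also higher. Kcnc2 (1.68) had 42.1% of its Drd2-type UMIs in 1 nucleus and Unc5d 30.5%. Cpne4, a copine, and Asic2, an acid-sensing channel, had ratios of 1.95 and 1.18 that rested on the nucleus with Chat UMIs, which held 85.5 and 54.7% of their Drd2-type UMIs. Without it the ratios were -0.75 (-1.69 to 0.17) and 0.12 (-0.09 to 0.33), and those of Grik3 and Chrm3 were 2.47 and 2.27. Without sublibrary 4 the ratios were 3.34 for Grik3, 2.90 for Chrm3, 3.30 for Nell1 and 2.17 for Unc5c, and without sublibrary 1 that of Kcnc2 was 1.06.

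On the low receptor side Adarb2, an RNA-editing family member, stood at 960 against 174 CPM (-2.47) and Foxp2 at 686 against 170 CPM (-2.02). The synaptic protein Lingo2 (-1.62), the proteoglycan Gpc6 (-1.50), the sorting receptor Sorcs1 (-1.30), the secreted Tafa2 (-1.41) and the semaphorin Sema6d (-1.25) followed. Without sublibrary 4 the ratio was 0.30 for Gpc6, -0.24 for Tafa2, -0.65 for Sorcs1 and -0.69 for Sema6d, all short of 2-fold. That of Adarb2 was -1.71 without sublibrary 4.

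**Figure D5:**
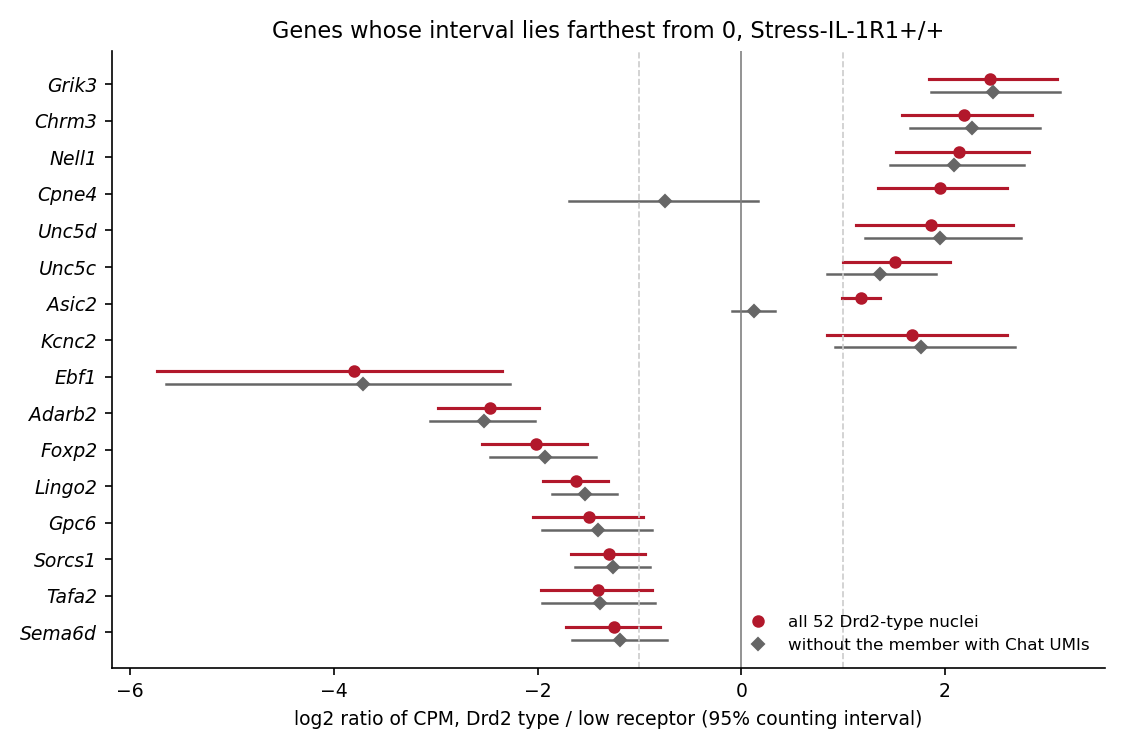
Log2 ratio of CPM in 52 Drd2-type over 38 low receptor nuclei for the 8 genes on each side whose interval lies farthest from 0, the 5 rule genes left out. Red circles are all nuclei and grey diamonds leave out the member with Chat UMIs, with exact 95% intervals for counting error and dashed lines at 2-fold; Cpne4 moves from 1.95 to -0.75 and Asic2 from 1.18 to 0.12.

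Of the 5 members with a Drd1 UMI, 4 also had an Ebf1 UMI, out of 21 members with Ebf1 in all, and 1 had a UMI of Drd2 or Adora2a. That last was the mixed nucleus, with 6827 UMIs, of which 1 was Drd1, 1 Drd2, 14 Rgs9, 6 Ppp1r1b, 14 Foxp2, 14 Otof and 1 Tac1, and none Ebf1 or Penk. Otof belongs to a list of genes of a D1 subtype known as eccentric or hybrid, of which 3 of 5 genes reached 50 UMIs against the other inhibitory nuclei. Otof was higher, and Col11a1 (0.32) and Tshz1 (0.39) lay within 2-fold. Under 50 UMIs, Casz1 had 12 against 0 UMIs and Cacng5 7 against 7. Between the receptor classes the list summed to 109 CPM in the Drd2 type and 331 CPM in the low receptor nuclei. None of its genes reached 50 UMIs there.

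Compartment genes of the striatum gave no single direction. Of the striosome list, Sema5b was higher in the members than in the other inhibitory nuclei (log2 ratio 1.41), and Bach2 (-1.46) and the mu opioid receptor Oprm1 (-1.68) were lower. Of the matrix list, the ephrin receptor Epha4 was higher (1.39) and Id4 had no UMI. Between the receptor classes, Sema5b had 14 UMIs in the Drd2 type and 35 in the low receptor nuclei. Bach2, the 1 striosome gene that reached 50 UMIs there, had 39 against 57 and lay within 2-fold. Oprm1 (9 against 3) and Kremen1 (8 against 2) went the other way.

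Of 9 neuropeptide genes only 4 were found in the members, and none reached 50 UMIs over both classes. Penk had the highest CPM, 71.3, from 33 UMIs, and Cartpt, Sst, Npy, Vip and Nts were at 0. Of 8 genes of the study's own question, 6 reached 50 UMIs, with none higher and 2 lower. Over all genes 10.3% were higher and 13% lower. Il1rap, the accessory protein of the interleukin-1 receptor, stood at 41.0 against 173 CPM (-2.08), and the transcription factor Creb1 had a log2 ratio of -1.23. Il1r1 was found in 1 of 91 members and in 4 of 132 other inhibitory nuclei, at 2.16 and 6.31 CPM, too few UMIs for a comparison at this depth.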

How the data were processed

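Nuclei were isolated from hippocampi by the study, fixed, barcoded by split-pool ligation and sequenced as sublibraries, of which the 4 given as samples were analysed here. The authors aligned reads to mm39 with the Parse Biosciences pipeline and deposited UMI counts per gene and nucleus for each of 8 pools, with Seurat 4.1.1 named in the submitters' processing notes; the annotation release is not given in the sources used here. Per-nucleus read and transcript totals deposited beside them were also counts. Barcode and doublet filters of the deposit were taken as they stood, and no doublet caller was run.

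Nuclei over 20% mitochondrial UMIs (516 of 57350) were left out. Counts were summed over the nuclei of a class and scaled to 1000000 UMIs (CPM). Ratios of CPM were given for genes with at least 50 UMIs over both classes, with exact conditional binomial intervals. Shares carry Clopper-Pearson intervals. A class with no UMI was set to a floor of 3 UMIs, summed over the class. The planned tests over pools needed 3 pools with at least 5 nuclei in each arm, and 1 pool had them, so none was run. Excitatory nuclei (4 UMIs and 8 per 10,000 of 7 genes) and oligodendrocytes (80 per 10,000 of 5 genes) were gated after values were seen. Thinning drew 1000 UMIs per nucleus, and left out 224 and 410 nuclei of sublibraries 2 and 3 of Stress-IL-1R1+/+. Named genes were the members of the lists and, per comparison, the 8 on each side whose interval lay farthest from 0, without mitochondrial genes and the genes that chose the classes; genes of the nucleus with Chat UMIs were picked after their values were seen. Some genes of the lists are not reported here by name. The members and lists were chosen with earlier results of these data known. Coordinates and gene spans came from GENCODE release M39 on the mm39 assembly (56017 of 56748 identifiers matched). Scripts were tested on simulated data and used Python 3.11.15, numpy 2.4.6, pandas 2.3.3, scipy 1.17.1 and matplotlib 3.10.9.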

Additional observations from a re-analysis of the deposited data

Results flagged for a closer look

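Of 55 sets of 4 sublibrary values, 2 had a value that stood far from the other 3 by Dixon's criterion, where chance marks about 1 set in 20. Bcl11b in the other inhibitory nuclei was highest in sublibrary 3, at 387 CPM, against 210, 216 and 219 CPM. Rxrg in the other inhibitory nuclei was 2.70 CPM in 1 sublibrary, from a single UMI, and 0 in the other 3.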

How the results depend on the processing

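The number of medium spiny nuclei was 98. It was 39 with at least 3 of the 5 genes found, 154 with no condition on Gad1 and Gad2, 60 with at least 2 Gad UMIs and 11 after thinning, and lay between 81 and 108 under the other settings on thresholds, mitochondrial share and Slc17a7 or Slc17a6. Leaving out each sublibrary gave 52 to 89, the lowest without sublibrary 4. The share of members in Stress-IL-1R1+/+ was 100% with 3 genes (39 of 39) and after thinning (11 of 11), and 88.5 to 94.4% without each sublibrary. The Drd1 share of typed nuclei, which leaves out the low receptor nuclei, was 0 except with no Gad condition, where 1 of 86 gave 1.16%. Against other inhibitory nuclei, 1952 genes were higher and 1996 lower with no filter on low counts, and 573 and 1561 against all other nuclei with a Gad UMI. Without each sublibrary 291 to 375 were higher and 380 to 476 lower. All 32 gene ratios followed in that comparison kept their sign in every setting that gave a value. In the 7 members of the other 7 pools 31 gave one and Rxrg, at 0 UMIs, gave none. In the Drd2 type, leaving out each sublibrary gave 14 to 53 higher genes, 14 without sublibrary 1 and 53 without sublibrary 4, and 23 to 29 lower. Of 16 gene ratios, 3 changed sign: Cpne4 (-0.75 without the nucleus with Chat UMIs, and -1.31 to 4.40 without each sublibrary), Asic2 (-0.41 to 2.72) and Gpc6 (-1.92 to 0.30). Cpne4 and Asic2 turned without sublibrary 1, which holds that nucleus, and Gpc6 without sublibrary 4. Counting intervals leave out the spread between nuclei and mice. The tests over pools by edgeR and DESeq2, with their normalization, filter, block and leave-one-pool alternatives, could not be fitted, and comparisons with the Drd1 type had no nuclei. The planned pairing of classes within each pool was not possible because only 1 pool had 5 or more members. The samples themselves form 1 group.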
